A study of Mus musculus with 5 samples.

Results

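Genes that mark macrophages and their activation were examined by RNA-seq in whole prostate tumors of 3 castrated and 2 intact mice. The set held 42 genes, taken by symbol from the 24527 genes of the count table, and all 42 were among the 14612 genes that passed the filter on low counts. Marco, Timd4 and Retnla passed it through the castrated samples alone, so that these 3 had to be higher there. All 5 mice carried the same 4 alleles (hHGFtg, hMETtg, BCAT and PBCre in the sample names), and each sample came from a separate animal. hHGFtg is a human HGF transgene expressed ubiquitously, whereas hMETtg, a human MET transgene, and BCAT, a stabilized form of β-catenin, are switched on in prostate epithelium by PBCre, a Cre recombinase under the probasin promoter. Castration was performed at 4 months and tumors were taken at 8 months of age, and the intact mice were of the same age. The comparison addresses what the removal of testicular androgen leaves different in these tumors. The castrated libraries held 28015507, 18951782 and 20492061 counts (replicates 1, 2 and 3) and the intact ones 21560355 and 22853501 (replicates 1 and 2), and values are given in this order throughout.

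Macrophages are phagocytes that live in every tissue and are replenished in part from blood monocytes. The transcription factor PU.1 and the receptor for colony-stimulating factor 1 (CSF1R) set their identity, and their Fc receptors and several lectins signal through adaptors with an immunoreceptor tyrosine-based activation motif (ITAM). In tumors they take up dying cells and lipid, degrade this cargo in lysosomes, and present a range of activation states. In whole tissue, fewer macrophages and less RNA per macrophage cannot be told apart.

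Macrophage genes had higher values in tumors of castrated mice, although no single gene passed the adjusted threshold in the quasi-likelihood test of edgeR. Of the 42 genes, 40 had a log2 fold change above 0 (95.2%, against 47.9% of the 14612 genes tested) and 35 had one above 1 (83.3%, against 14.5%). The median log2 fold change was 1.75 over the 42 genes and -0.03 over all genes tested. For 30 of the 42 (71.4%), every castrated mouse was above both intact mice, which held for 17% of all genes, and for 0 of the 42 was every castrated mouse below both intact mice, which held for 16.1% of all genes. Without Marco, Timd4 and Retnla, 37 of 39 genes were above 0 and the median was 1.67. Every castrated mouse was then above both intact mice for 27 of the 39. The summed level of the 42 genes was 5260 CPM (counts scaled to library size, with sizes adjusted by the trimmed mean of M-values) in castrated replicate 1, 31213 in replicate 2 and 10977 in replicate 3, against 3213 and 3877 in the intact mice. Lyz2, Ctss, Gpnmb and Spp1 made up 53.8%, 75.5% and 64.5% of this sum in the castrated mice and 55.4% and 60.2% in the intact mice.

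In the quasi-likelihood test of edgeR, with Benjamini-Hochberg adjustment, 0 of the 42 genes and 0% of all genes tested had both an adjusted p under 0.05 and a log2 fold change beyond 1 in either direction. The adjusted p of the 42 genes in this edgeR test lay between 0.32 and 0.956. The study itself reports genes that differ between castrated and intact tumors, and its methods give these same thresholds. The reason for the difference from its result was not tested. At an unadjusted p under 0.05 with the same fold change, 20 of the 42 were higher in castrated mice, against 7.34% of all genes, and 0 of the 42 were lower, against 3.13%. Without Marco, Timd4 and Retnla, 18 of 39 were higher. Other tools drew the line elsewhere. DESeq2 called 15 of the 42 genes, edgeR's likelihood ratio test called 4 and limma voom called 0, among 989, 369 and 0 genes in all. The 15 were Adgre1, Axl, Cd163, Cd68, Clec10a, Clec4n, Csf1r, Ctsk, Fcer1g, Folr2, Gpnmb, Lyve1, Marco, Retnla and Spi1, and the 4 were Clec10a, Clec4n, Marco and Retnla, all of them higher in castrated mice. Marco and Retnla, in both lists, passed the filter through the castrated samples alone, so their direction was fixed. With 3 against 2 mice, an exact permutation test of a single gene cannot give a two-sided p under 0.2.

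**Figure D1:**
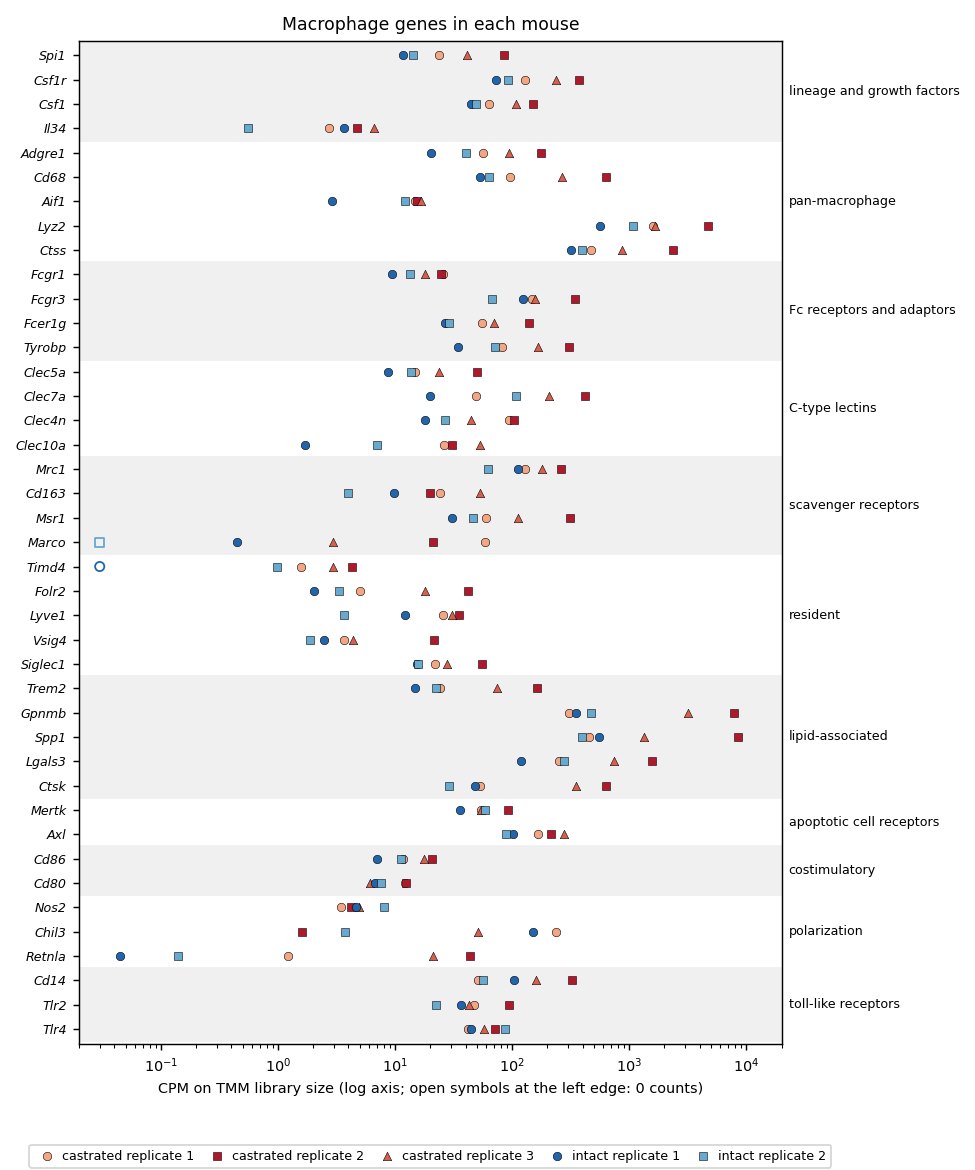
Level of the macrophage genes in each mouse, grouped by role, in CPM on a log axis, with symbols for the 3 castrated and 2 intact mice and open symbols at the left edge for 0 counts. Castrated replicate 2 holds the rightmost point for most genes, and intact replicate 1 the leftmost for 24.

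The castrated mice did not contribute alike. Castrated replicate 2 had the highest level of 32 of the 42 genes, replicate 3 of 5 and replicate 1 of 3, and intact replicate 2 had the highest level of the other 2, Nos2 and Tlr4. Castrated replicate 1 was above both intact mice for 33 of the 42 genes (31.2% of all genes), replicate 2 for 39 (31.9% of all genes) and replicate 3 for 36 (32.7% of all genes). The 9 genes for which castrated replicate 1 was not above both intact mice were Il34, Clec7a, Gpnmb, Spp1, Lgals3, Mertk, Nos2, Cd14 and Tlr4. Without castrated replicate 2, the median log2 fold change of the 42 genes was 1.12 and 11 genes were higher at the unadjusted threshold, against 4.13% of the genes tested. For 30 genes both remaining castrated mice were then above both intact mice, which held for 20% of the genes tested.

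The samples also differed in markers of the tissue itself. All 5 expressed the epithelial keratin Krt18, at 629 to 1109.6 CPM. A prostate gene was high in intact replicate 2, where Tgm4, a prostate transglutaminase, was at 1347 CPM. The other 4 samples had Tgm4 between 0.0487 and 0.419 CPM, and Msmb was at 0 counts in every sample. Genes of adipocyte hormones were high in castrated replicates 2 and 3. Lep, the gene for leptin, was at 15.9 and 15.0 CPM there and at 0 counts in the other 3 samples, and Cfd, the gene for adipsin, was at 1.67, 149.6 and 169 CPM in castrated and 0 and 0 CPM in intact mice. The summed level of 12 adipocyte genes was 329, 3826 and 2131 CPM in castrated and 93.6 and 331 CPM in intact mice, with Fabp4 the most abundant gene on TPM. Fabp4, Lpl and Cd36 of this list are also made by macrophages and endothelium. Castrated replicates 1, 2 and 3 were above both intact mice for 33, 39 and 36 of the 42 macrophage genes. The shares of all genes were 31.2%, 31.9% and 32.7%. The part of adipose tissue in the macrophage values of the castrated mice was not tested.

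Promoter sequence was described for the members that had an entry in the RefSeq promoter table (build GRCm38.p6, 250 bases before to 50 after each start site), 27 of 42 with 31 promoters. 3 motifs were searched on both strands: GAGGAAGT, a core bound by PU.1 and other ETS factors, TGANTCA, the site of AP-1, and TCANGTGA, bound by MITF and TFE factors, which control lysosomal genes. None of the letter patterns overlaps another in the windows shown. GAGGAAGT was found for 3 of 27 members (11.1%, against 3.69% of all genes and 3.2% of all promoters in the table), TGANTCA for 5 (18.5%, against 8.97% and 7.81%) and TCANGTGA for 2 (7.41%, against 4.78% and 4.18%). A match describes letters in this window and is not evidence of binding. The 3 PU.1/ETS matches were in Ctss, Spp1 and Retnla, which are members with high or widely differing levels, and the windows below put the match in capitals. The Ctss window lies at chr3:95526773-95526802, that of Spp1 at chr5:104434987-104435016 and that of Retnla at chr16:48842400-48842429, all on the + strand of mm10, and Ctss and Retnla hold the reverse complement.
Ctss: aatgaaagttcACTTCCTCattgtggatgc
Spp1: caaaaccagagGAGGAAGTgtaggagcagg
Retnla: gaagtgggtttACTTCCTCaagtctcttga

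AP-1 letters were found in Gpnmb, Trem2, Cd68, Folr2 and Cd80, and windows are shown for the first 3, which are lysosomal or lipid-associated genes highest in castrated replicate 2. Trem2 holds A and Cd80 holds T at the open base, which is not the usual AP-1 form. The windows lie at chr6:49036515-49036544 and chr17:48346381-48346410 on the + strand and at chr11:69666176-69666205 on the - strand, the last being the nearer to the start site of 2 matches in Cd68.
Gpnmb: ccaggggcaagTGACTCAtgagcacgagtt
Trem2: ttctccctcctTGAATCAcagcgcctaccc
Cd68: gctgaggtgtcTGAGTCAggtttggggtgg

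MITF/TFE letters were found in Lgals3 and Ctss. Lgals3 holds G at the open base, which is not the usual MITF/TFE form. The Lgals3 window lies at chr14:47373625-47373654 and the Ctss window at chr3:95526793-95526822, both on the + strand, and the latter lies after the start site.
Lgals3: tgcggaaggctTCAGGTGAaggaattaggg
Ctss: ttgtggatgctTCATGTGAcaagctccgat

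The 250 bases before the start sites of Spp1 and Retnla are given in full, since Spp1 was the most abundant member in castrated replicate 2 and Retnla had the largest fitted log2 fold change. They lie at chr5:104434861-104435110 and chr16:48842359-48842608 on the + strand, with the PU.1/ETS letters in capitals and no AP-1 or MITF/TFE letters.
Spp1: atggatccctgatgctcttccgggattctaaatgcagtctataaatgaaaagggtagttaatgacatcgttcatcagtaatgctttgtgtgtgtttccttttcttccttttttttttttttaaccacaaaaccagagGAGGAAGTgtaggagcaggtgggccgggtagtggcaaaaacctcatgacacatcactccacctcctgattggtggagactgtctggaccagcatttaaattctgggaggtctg
Retnla: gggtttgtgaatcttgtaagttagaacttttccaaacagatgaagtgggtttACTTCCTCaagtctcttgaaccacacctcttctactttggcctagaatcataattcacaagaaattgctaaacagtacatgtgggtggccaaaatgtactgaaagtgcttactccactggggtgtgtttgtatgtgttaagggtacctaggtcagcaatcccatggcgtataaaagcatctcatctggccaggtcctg

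Spi1 (chr2:91096678-91115759), which encodes PU.1, was at 23.8, 85.8 and 41.5 CPM in castrated and 11.7 and 14.1 CPM in intact mice. Every castrated mouse was above both intact mice, and the log2 fold change was 1.96 ± 0.60 (± standard error here and below). Csf1r, the CSF1 receptor, was at 129, 369.7 and 237 CPM in castrated and 73.2 and 92.7 CPM in intact mice, a log2 fold change of 1.56 ± 0.49, with the same order of samples as Spi1. Its ligands differed. Csf1 was at 63.0, 149.7 and 107 CPM in castrated and 44.1 and 48.9 CPM in intact mice, with no overlap between groups and a log2 fold change of 1.20 ± 0.40. Il34, the second ligand of this receptor, was rare, at 2.72, 4.72 and 6.58 CPM in castrated and 3.63 and 0.558 CPM in intact mice, and intact replicate 1 lay within the castrated range. The log2 fold change of Il34 was 1.15 ± 0.91, near that of Csf1, and a difference between the ligands was not tested.

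Genes expressed by macrophages in general were all higher in each castrated mouse than in both intact mice. Adgre1, which encodes the F4/80 surface antigen, was at 56.3, 176 and 94.5 CPM in castrated and 20.3 and 40.3 CPM in intact mice, a log2 fold change of 1.85 ± 0.60. Cd68, a lysosomal membrane glycoprotein, was at 96.8, 638 and 269 CPM in castrated and 53.3 and 63.0 CPM in intact mice, a log2 fold change of 2.52 ± 0.84. Castrated replicate 2 held more than any other sample for both, and castrated replicate 1 lay nearest to the intact mice. Lyz2, the lysozyme of myeloid cells, was at 1596, 4736 and 1664 CPM in castrated and 558 and 1072 CPM in intact mice, with a log2 fold change of 1.71 ± 0.70. Ctss, a lysosomal protease that trims the invariant chain of MHC class II, was at 472, 2374 and 871 CPM in castrated and 318 and 398 CPM in intact mice (1.79 ± 0.76). Aif1, a calcium-binding protein also known as IBA1, was the one gene here with nearly equal castrated mice, at 14.9, 15.4 and 16.7 CPM in castrated and 2.87 and 12.0 CPM in intact mice. Its intact mice differed more from each other than intact replicate 2 differed from the castrated mice, and the fold change was 1.07 ± 0.64. Reads of Lyz2 and its close paralog Lyz1 may not have been separated fully in the counting.

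Fc receptors bind antibody-coated targets and are grouped here with a pair of ITAM adaptors. Fcer1g, the common Fc receptor γ chain that carries the signals of Fcgr1 and Fcgr3, was at 55.7, 139 and 70.0 CPM in castrated and 26.4 and 29.1 CPM in intact mice, and its log2 fold change of 1.67 ± 0.46 was among the more precise of the set. Tyrobp, the adaptor DAP12 used by TREM2 and CLEC5A, was at 81.2, 305 and 166 CPM in castrated and 34.5 and 71.4 CPM in intact mice (1.80 ± 0.66). Both adaptors were above both intact mice in every castrated mouse, for Tyrobp by a small margin in castrated replicate 1. Fcgr1, the high-affinity IgG receptor, did not follow castrated replicate 2, with 25.7, 24.7 and 18.2 CPM in castrated and 9.41 and 13.5 CPM in intact mice, and its log2 fold change was 0.997 ± 0.32. Fcgr3, a low-affinity IgG receptor, was at 148, 341 and 155 CPM in castrated and 123 and 66.7 CPM in intact mice (1.18 ± 0.51). Both receptors had smaller log2 fold changes than Fcer1g, a difference that was not tested.

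C-type lectins recognize sugars on microbes and on the body's own glycoproteins. Clec10a (chr11:70166623-70170836), a galactose-type lectin of macrophages and dendritic cells, was at 26.4, 30.9 and 53.3 CPM in castrated and 1.70 and 7.02 CPM in intact mice, with a log2 fold change of 3.08 ± 0.75. Clec4n (chr6:123229843-123247024), which encodes Dectin-2, was at 94.6, 103 and 44.6 CPM in castrated and 17.9 and 26.9 CPM in intact mice (1.85 ± 0.46). Clec10a peaked in castrated replicate 3 and Clec4n in castrated replicate 2, and both kept the groups apart. Clec5a, which signals through DAP12, was at 14.7, 49.7 and 23.8 CPM in castrated and 8.78 and 13.6 CPM in intact mice (1.39 ± 0.60). Clec7a, the β-glucan receptor Dectin-1, was at 49.2, 419.8 and 208 CPM in castrated and 19.9 and 109 CPM in intact mice, and intact replicate 2 exceeded castrated replicate 1.

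Scavenger receptors bind modified lipoproteins, hemoglobin complexes and bacteria, and Mrc1, Cd163 and Msr1 separated the groups and were higher at the unadjusted threshold, as was Marco, which passed the filter through the castrated samples alone. Mrc1, the mannose receptor CD206, was at 129, 259.7 and 179 CPM in castrated and 113 and 61.8 CPM in intact mice (1.12 ± 0.42), and castrated replicate 1 and intact replicate 1 lay close together. Cd163, which clears hemoglobin bound to haptoglobin, was at 24.4, 19.7 and 53.4 CPM in castrated and 9.72 and 4.0 CPM in intact mice (2.24 ± 0.65). Msr1, the class A scavenger receptor, was at 59.2, 314 and 113 CPM in castrated and 30.8 and 46.3 CPM in intact mice (2.07 ± 0.78). These 3 genes peaked in different mice, Cd163 in castrated replicate 3 and the others in castrated replicate 2. Marco (chr1:120474538-120505024), a scavenger receptor with a collagen-like domain, spread widely among castrated mice, at 58.4, 21.1 and 2.97 CPM in castrated and 0.448 and 0 CPM in intact mice. Its order, with castrated replicate 1 highest and replicate 3 lowest, ran against that of most other members. The fitted log2 fold change of 6.89 ± 1.95 rests on 10 counts in intact replicate 1 and 0 counts in intact replicate 2, where 3 counts, 0.139 CPM, remain possible. Summed over mice, 2128 counts stood against 10, a ratio of 137 after scaling (95% exact binomial interval 74.5 to 287, which covers counting error only). Castrated replicate 1 held 1674 of the 2128 counts, and without it the log2 fold change was 5.70. Without intact replicate 1, which leaves 0 intact counts, it was 12.3.

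Markers of tissue-resident macrophages lay between 0 and 55.2 CPM, and Folr2, Siglec1 and Lyve1 were higher in castrated mice at the unadjusted threshold. Folr2, a folate receptor of resident macrophages, was at 5.06, 41.8 and 18.1 CPM in castrated and 2.02 and 3.35 CPM in intact mice (3.01 ± 0.99). Timd4, a phosphatidylserine receptor, was at 1.57, 4.29 and 2.97 CPM in castrated and 0 and 0.976 CPM in intact mice, and summed counts of 186 against 21 gave a ratio of 5.71 (95% exact binomial interval 3.63 to 9.44, counting error only). Vsig4, a complement receptor, was at 3.63, 21.4 and 4.38 CPM in castrated and 2.46 and 1.86 CPM in intact mice (2.18 ± 0.97, and 0.89 without castrated replicate 2). Castrated mice were above both intact mice for each of these genes, but castrated replicates 1 and 3 exceeded the higher intact mouse by little for Vsig4. Siglec1, the sialoadhesin CD169, was at 21.8, 55.2 and 27.9 CPM in castrated and 15.3 and 15.8 CPM in intact mice (1.17 ± 0.46). Lyve1, a hyaluronan receptor shared with lymphatic endothelium, was at 25.6, 35.5 and 30.6 CPM in castrated and 12.2 and 3.67 CPM in intact mice (1.94 ± 0.57). In the 5 lymphatic endothelial genes the summed level was 623, 406 and 438 CPM in castrated and 508 and 123 CPM in intact mice, with Ccl21a the most abundant gene on TPM. Prox1 made up most of this sum in castrated replicate 1 and in both intact mice, at 450.1, 145 and 152 CPM in castrated and 458 and 62.2 CPM in intact mice. Ccl21a was at 58.8, 51.8 and 107 CPM in castrated and 0.0896 and 7.16 CPM in intact mice, and it, Reln and Pdpn separated the groups. The part of lymphatic vessels in the Lyve1 values was not tested.

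On CPM, the largest differences between group means lay in 2 genes of lipid-laden macrophages, and they came from castrated replicates 2 and 3. Gpnmb (chr6:49036518-49058182), a lysosomal glycoprotein whose start site carries the AP-1 letters printed with the promoters, was at 306, 7889.8 and 3196 CPM in castrated and 353 and 467 CPM in intact mice. Spp1 (chr5:104435111-104441053), which encodes the secreted phosphoprotein osteopontin, was at 458, 8575 and 1349 CPM in castrated and 549.9 and 396 CPM in intact mice. For both genes castrated replicate 1 lay below intact replicate 1, so that the groups overlapped, and the log2 fold changes of 3.21 ± 1.37 and 2.87 ± 1.37 had standard errors above 1. Lgals3, the β-galactoside-binding lectin galectin-3, was at 252, 1560.3 and 738 CPM in castrated and 118 and 277 CPM in intact mice (2.10 ± 0.88), again with castrated replicate 1 inside the intact range. Ctsk, the collagen-degrading cathepsin K, was at 52.7, 639 and 351 CPM in castrated and 48.4 and 28.8 CPM in intact mice (3.17 ± 1.10). Trem2 (chr17:48346401-48352276), a lipid-sensing receptor that signals through DAP12, was at 24.1, 163 and 74.5 CPM in castrated and 14.9 and 22.5 CPM in intact mice (2.22 ± 0.84). Ctsk and Trem2 kept the groups apart only narrowly, by castrated replicate 1. Without castrated replicate 2, the log2 fold change of Spp1 was 0.94 and that of Gpnmb 2.11. Spp1, Lgals3, Gpnmb and Ctsk are also made by cells other than macrophages, among them tumor epithelium, fibroblasts and osteoclasts. Acp5, the tartrate-resistant phosphatase of osteoclasts and macrophages, was at 48.3, 198 and 105 CPM in castrated and 29.1 and 24.7 CPM in intact mice. Atp6v0d2, a proton pump subunit of osteoclasts and macrophages, was at 30.6, 442 and 207 CPM in castrated and 14.7 and 57.4 CPM in intact mice. Calcr, the calcitonin receptor that marks osteoclasts, was at 0 counts in every sample, and the part of osteoclast-like cells in these values was not tested.

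On TPM, in which counts are divided by gene length so that genes can be compared, the order of levels differed between mice within each group. Lyz2 was the most abundant member on average, at 4212 TPM over the 5 mice, and Timd4 the least, at 2.08 TPM. In intact mice Lyz2 was at 1309 and 1887 TPM, Spp1 at 822 and 445 TPM and Ctss at 581 and 546 TPM. In castrated replicate 2, Spp1 was at 12291 TPM, above Lyz2 at 10643 TPM, and Gpnmb was at 4930 TPM. In castrated replicate 3, Lyz2 was at 3664 TPM, Gpnmb at 1957 TPM and Spp1 at 1895 TPM. In castrated replicate 1, by comparison, Lyz2 stood at 3559 TPM, Ctss at 819 TPM, Spp1 at 651 TPM and Gpnmb at only 189.6 TPM. Lyz2, Ctss and Spp1 thus had the same order in castrated replicate 1 as in intact replicate 2. The 2 lipid-associated genes took different ranks in castrated mice whose Lyz2 levels differed by less.

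Receptors for apoptotic cells belong to the TAM kinase family, and the set held a pair of them. Axl (chr7:25756500-25788733), which binds phosphatidylserine through its ligand GAS6, was at 168, 215 and 279 CPM in castrated and 102 and 88.4 CPM in intact mice. All castrated mice were above both intact mice, and the log2 fold change of 1.21 ± 0.29 had the smallest standard error of the 42 genes (adjusted p = 0.32, quasi-likelihood test of edgeR with Benjamini-Hochberg adjustment). Mertk, a close relative, was at 53.8, 93.0 and 54.1 CPM in castrated and 36.0 and 58.2 CPM in intact mice, and intact replicate 2 exceeded castrated replicates 1 and 3. The log2 fold change of Mertk was 0.51 ± 0.37, and its difference from Axl was not tested. Axl is also expressed by fibroblasts, endothelium and tumor cells.

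Activation genes gave the most mixed picture. Retnla (chr16:48842609-48844461), a secreted protein induced by interleukin 4 in macrophages and also made by adipose tissue, was at 1.22, 43.2 and 20.9 CPM in castrated and 0.0448 and 0.139 CPM in intact mice. Its high values were in castrated replicates 2 and 3, and the intact mice held 1 and 3 counts. Summed counts of 1271 against 4 gave a ratio of 205 (95% exact binomial interval 79.8 to 753, counting error only), and the fitted log2 fold change was 7.81 ± 1.96. Chil3, a chitinase-like protein, split both groups, at 235, 1.61 and 50.6 CPM in castrated and 150.0 and 3.72 CPM in intact mice. Its log2 fold change of 0.32 ± 2.02 changed sign without castrated replicate 1 (-1.56) and without intact replicate 2 (-0.69), and its reads may be shared with the near-identical Chil4. Nos2, the inducible nitric oxide synthase, was at 3.45, 4.24 and 4.92 CPM in castrated and 4.66 and 7.99 CPM in intact mice, a log2 fold change of -0.59 ± 0.44. It was 1 of 2 members with a value below 0, and its groups overlapped.

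Costimulatory and Toll-like receptor genes were less distinct. Cd86 was at 11.6, 20.8 and 17.5 CPM in castrated and 6.99 and 11.3 CPM in intact mice (0.86 ± 0.41) and Cd80, which shares its receptors CD28 and CTLA-4 on T cells, at 12.2, 12.4 and 6.09 CPM in castrated and 6.68 and 7.58 CPM in intact mice (0.52 ± 0.44). Cd86 separated the groups by a small margin and Cd80 did not. Tlr2, a receptor for bacterial lipoproteins, was at 47.5, 93.6 and 42.8 CPM in castrated and 36.6 and 22.3 CPM in intact mice (1.06 ± 0.46). Cd14, the co-receptor that passes lipopolysaccharide to TLR4, was at 50.9, 326 and 161 CPM in castrated and 103 and 56.2 CPM in intact mice (1.17 ± 0.80), with castrated replicate 1 below both intact mice. Tlr4 itself was at 41.7, 71.8 and 57.9 CPM in castrated and 44.9 and 87.6 CPM in intact mice, highest in intact replicate 2, with a log2 fold change of -0.21 ± 0.38 that became 0.30 without that mouse. Of these 5 genes, 2 had castrated mice wholly above intact mice, against 17% of all genes.

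**Figure D2:**
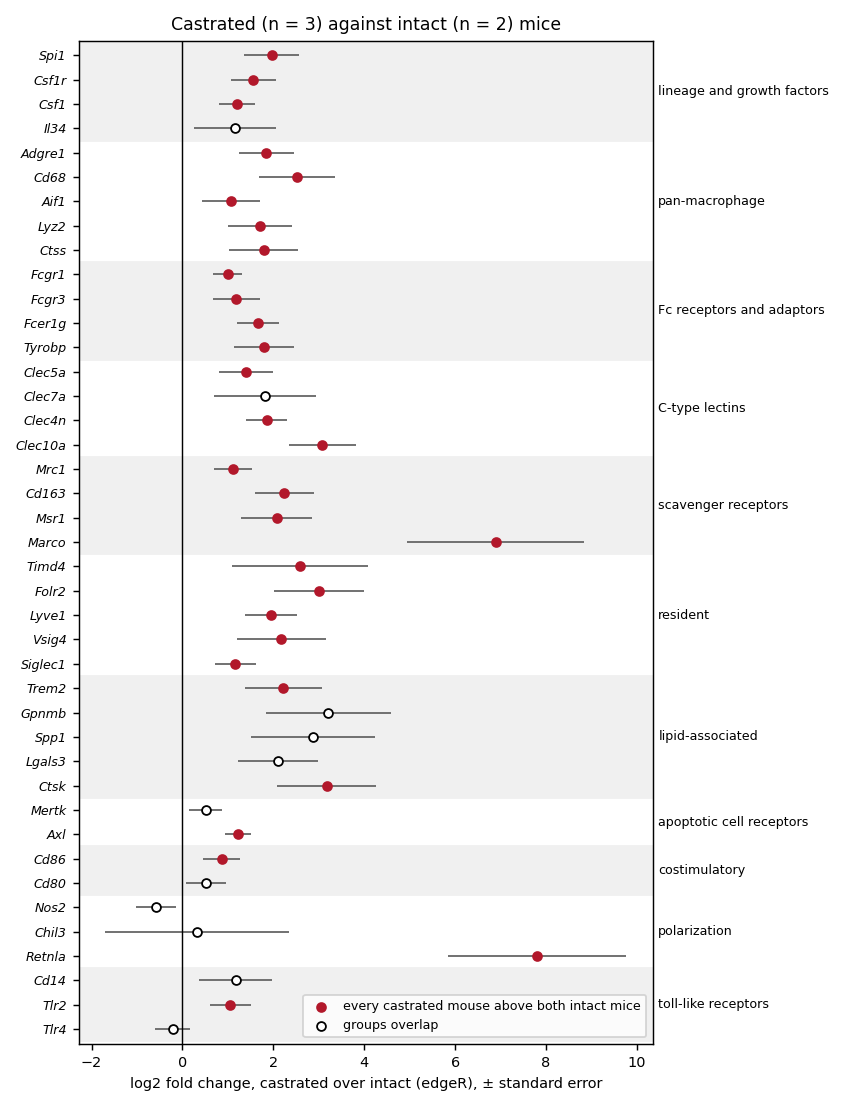
Log2 fold change of castrated over intact mice with its standard error for the macrophage genes, grouped by role. Filled points mark the 30 genes for which every castrated mouse was above both intact mice, and open points those whose groups overlapped, while only Nos2 and Tlr4 lie left of 0.

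By role, medians of the log2 fold change ran from 2.87 for 5 lipid-associated genes, 2.18 for 5 resident genes and 2.16 for 4 scavenger receptors, through 1.83 for 4 C-type lectins and 1.79 for 5 pan-macrophage genes, to 1.42 for 4 Fc receptors and adaptors and 1.38 for 4 lineage genes. They were lower for 3 Toll-like receptor genes at 1.06, 4 polarization genes at 0.95, the pair of apoptotic cell receptors at 0.86 and the costimulatory pair at 0.69. No test of differences between roles was made, since members of a role share the same 5 mice. Without castrated replicate 2 all 42 log2 fold changes kept their sign, but 24 rather than 35 exceeded 1, and the fold was lower by a factor of more than 1.5 for 17 of the 42. The order of the roles also depended on single mice. Without castrated replicate 2 the median of the lipid-associated genes was 1.41, below 1.82 for the resident genes and 1.84 for the scavenger receptors, and that of the Toll-like receptor genes was 0.42. Without intact replicate 1 the median of the polarization genes was 3.16, and without intact replicate 2 that of the C-type lectins was 2.80. Single genes moved with the intact mice too. Without intact replicate 1 the log2 fold change was 2.41 for Clec10a, 0.40 for Aif1, 3.08 for Lyve1 and 3.04 for Cd163. Without intact replicate 2 it was 4.39 for Clec10a, 2.40 for Aif1 and 1.28 for Lyve1. Leaving out Marco, Timd4 and Retnla gave medians of 2.07 for scavenger receptors, 2.06 for resident genes and 0.32 for polarization genes.

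To describe the lists apart from the overall macrophage level, each was also set against core macrophage genes of the same sample. The core level, the mean log2 CPM of Adgre1, Csf1r and Fcgr1, was 5.84, 6.87 and 6.21 in castrated and 4.60 and 5.21 in intact mice, a difference of 1.40. Relative to it, C-type lectins stood 0.63 higher in castrated mice, to which Clec10a (1.90) contributed most, and every castrated mouse was above both intact mice. The margin was small, with castrated replicate 1 at -0.64 and intact replicate 2 at -0.68. Clec7a (0.40), Clec4n (0.38) and Clec5a (-0.17) each overlapped between groups. Scavenger receptors stood at 0.01, -0.62 and -0.80 in castrated and at -1.06 and -2.70 in intact mice, a difference of 1.41 that Marco dominates (4.75 for Marco alone), and resident genes differed by 0.72, to which Timd4 (1.78) contributed most. Marco and Timd4 passed the filter through the castrated samples alone. Without them, an alternative chosen after seeing the data, the differences were 0.30 for scavenger receptors and 0.45 for resident genes, and the groups overlapped for both lists.

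Several lists were lower relative to the core genes in every castrated mouse than in both intact mice. The core level itself was 1.40 higher in castrated mice, so a gene with equal levels in both groups also stands lower on this measure. The share of all genes that do so was not counted. Toll-like receptor genes stood at -0.30, 0.15 and -0.01 in castrated and at 1.20 and 0.37 in intact mice, a difference of -0.84 on the log2 scale. Costimulatory genes differed by -0.75, apoptotic cell receptors by -0.56 and 8 inflammatory genes by -0.63. Ptgs2 (-2.84) and Il6 (-2.13) contributed most to the inflammatory difference, whereas Il10, Ccl4 (0.64) and Ccl3 (0.13) of that list were higher. The inflammatory difference was -0.43 with a prior count of 0.5 and -0.81 without Ccl4, and the groups stayed apart in both. Among the other lists outside the set, further resident genes stood 0.68 higher in castrated mice, with every castrated mouse above both intact mice. Cd209f (3.48), at 0 counts in intact replicate 1, contributed most to this, and Pf4 (1.43) and Cbr2 (0.82) were also higher. Stab1 (-1.02), Gas6 (-0.39) and F13a1 (-0.22) of the same list were lower. Monocyte recruitment genes differed by 0.58 with Ly6c2, which passed the filter through the castrated samples alone, and by 0.17 with overlapping groups without it. The remaining lists overlapped. Among single members, Nos2 differed by -1.95, Tlr4 by -1.57, Mertk by -0.91 and Cd86 by -0.55 without overlap. Several of these genes are expressed by stromal or epithelial cells too, and the part of those cells in the relative levels was not tested. Lipid-associated genes stood at 1.24, 3.78 and 3.04 in castrated and at 2.19 and 1.78 in intact mice. Castrated replicate 1 was thus the lowest of all 5 samples on this measure and castrated replicates 2 and 3 the highest. With all 5 pan-macrophage genes as the reference, the C-type lectins, the scavenger receptors, the further resident genes and the monocyte recruitment genes overlapped between groups, and so did the resident genes without Timd4, while the apoptotic cell receptor, costimulatory, Toll-like receptor and inflammatory lists remained apart.

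**Figure D3:**
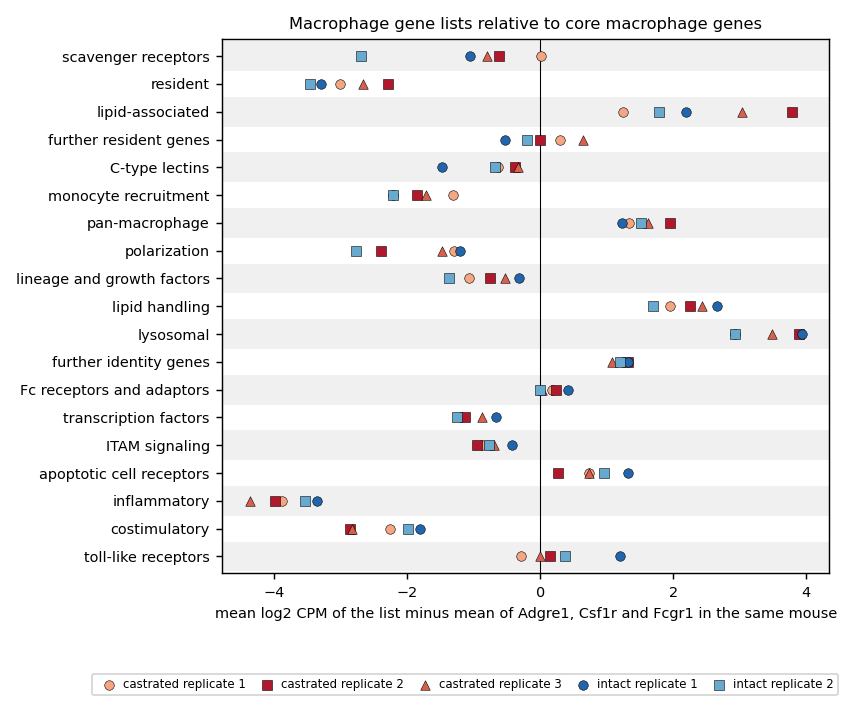
Mean log2 CPM of each macrophage gene list minus the mean of Adgre1, Csf1r and Fcgr1 in the same mouse, with 1 symbol per mouse and lists sorted by the difference between groups. C-type lectins lie higher in all castrated mice, as do the scavenger receptor and resident lists with Marco and Timd4 included, Toll-like receptor and costimulatory lists lie lower, and lipid-associated genes range from 1.24 in castrated replicate 1 to 3.78 in castrated replicate 2.

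Macrophage genes outside the set showed the same direction in most cases. Like the members, they were chosen with earlier results of these data known, and they were read in the same mice. Their counts therefore describe further genes and are not an independent check of the members, and the shares of all genes are given for scale only. Of 56 further genes, 55 were tested (Il10, with 1 to 20 counts per sample, was not), 52 had a log2 fold change above 0, and the median was 1.38. In 37 (17% of all genes) every castrated mouse was above both intact mice, and 26 were higher (7.34% of all genes) and 0 lower (3.13% of all genes) at the unadjusted threshold. Ly6c2 and Ccl4 passed the filter through the castrated samples alone, and without them 35 of 53 were apart, 24 were higher at the unadjusted threshold and the median was 1.29. At the adjusted threshold, edgeR's quasi-likelihood test and limma voom called 0 of them, DESeq2 called 15 and the likelihood ratio test 4 of them. Apoe, the apolipoprotein of lipid-handling macrophages, was the most abundant on TPM, at 2279.8, 3579 and 2925 CPM in castrated and 998 and 1171 CPM in intact mice (1.43 ± 0.39). The lysosomal proteases Ctsd and Ctsb followed, Ctsd at 1385, 3535 and 1554 CPM in castrated and 833 and 732 CPM in intact mice (1.46 ± 0.55) and Ctsb at 1515, 6738 and 2796 CPM in castrated and 1192 and 805 CPM in intact mice (1.88 ± 0.76). All 3 kept the groups apart, and Ctsb was highest in castrated replicate 2. The widest relative differences were in Ly6c2, a marker of classical monocytes, at 5.79, 18.2 and 14.8 CPM in castrated and 0.627 and 0.604 CPM (below the filter) in intact mice, and Cd209f, a lectin of resident macrophages, at 7.08, 15.6 and 24.6 CPM in castrated and 0 and 2.42 CPM in intact mice.

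Lipid-handling genes, chosen here after their values were seen, included Plin2, which coats lipid droplets, at 155, 253 and 295 CPM in castrated and 47.1 and 43.9 CPM in intact mice (2.36 ± 0.35), and Lipa, the lysosomal acid lipase, at 133, 768 and 338 CPM in castrated and 83.3 and 46.1 CPM in intact mice (2.67 ± 0.84). Plin2 was high in all 3 castrated mice, castrated replicate 1 included, whereas Lipa peaked in castrated replicate 2. The 3 tested genes below 0 were Cd9, a tetraspanin, at -0.02, Il6 at -0.27 and Ptgs2, the inducible cyclooxygenase, at -1.32 ± 0.55. Ptgs2 was at 22.7, 26.3 and 8.14 CPM in castrated and 35.7 and 59.7 CPM in intact mice. It was the 1 gene of the 55 with every castrated mouse below both intact mice, which held for 16.1% of all genes. The 7 tested inflammatory genes had a median log2 fold change of 0.39 (0.26 without Ccl4), against 1.67 over 6 lysosomal genes, 1.77 over 6 further resident genes, 1.55 over 6 monocyte recruitment genes (1.42 without Ly6c2), 1.40 over 8 further identity genes, 1.43 over 7 lipid-handling genes, 1.26 over 7 ITAM signaling genes and 1.16 over 8 transcription factors.

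**Figure D4:**
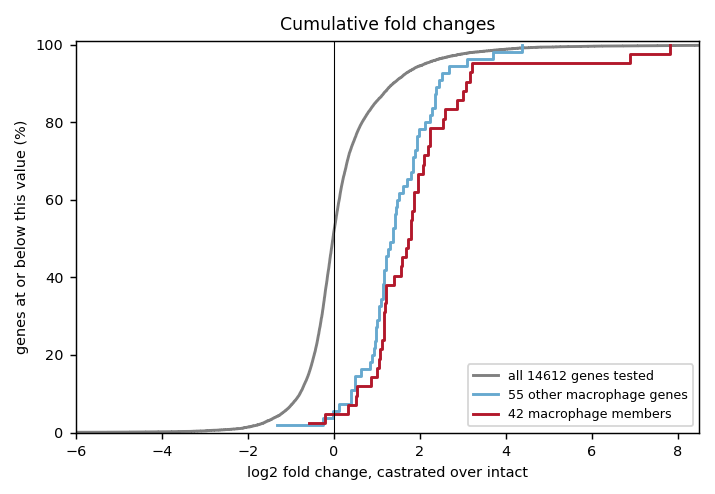
Cumulative share of genes (%) at or below each log2 fold change of castrated over intact mice, for the 42 macrophage members, 55 other macrophage genes and all 14612 genes tested. The median is 1.75 for the members, 1.38 for the other macrophage genes and -0.03 for all genes.

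Markers of other cell types were read in the same samples, with the most abundant gene of each list taken on TPM. The pan-leukocyte list, 5 genes, had a median log2 fold change of 1.70, and Cd52 was its most abundant gene. T cell genes (9 genes, median 1.16, Cd3g most abundant) had summed levels of 21.9, 75.2 and 72.6 CPM in castrated and 14.5 and 45.8 CPM in intact mice. B cell genes (7 genes, Cd79a most abundant), 6 of which passed the filter through castrated samples alone, had summed levels of 16.7, 103.6 and 108 CPM against 3.90 and 10.8 CPM. Neither list was as high as the macrophage genes in any sample, and B cell genes were highest in castrated replicates 2 and 3. Neutrophil genes, with S100a8 most abundant, were at 182, 157 and 105 CPM in castrated and 88.2 and 122.6 CPM in intact mice, with a median of 0.85. Dendritic cell genes, 8 in number and with Itgax most abundant, were at 47.1, 571 and 358 CPM against 18.6 and 74.4 CPM. Itgax, an integrin that macrophages share, was at 20.7, 527 and 286 CPM in castrated and 9.23 and 54.5 CPM in intact mice, and Cd209a was at 8.58, 12.0 and 20.2 CPM in castrated and 0 and 2.42 CPM in intact mice. Mast cell genes, with Tpsb2 most abundant, were at 184.7, 186 and 282 CPM against 50.1 and 50.5 CPM, and 5 of 6 were higher at the unadjusted threshold, against 7.34% of all genes, once Fcer1a and Ms4a2, which passed the filter through castrated samples alone, were left out. NK cell genes (4 of 6 tested, Gzma most abundant) had a median of 0.10, which was -0.55 without Klrb1c, a gene that passed the filter through castrated samples alone. Genes of several other immune cell types thus differed between samples together with the macrophage genes, and the part of each cell type in the values of genes shared with macrophages was not tested.

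Stromal lists varied, and counts of genes without overlap are to be read against 17% of all genes. Smooth muscle genes, without Myocd, which passed the filter through castrated samples alone, had a median log2 fold change of 2.32 (6 of 6 without overlap, Tagln most abundant), fibroblast genes 1.52 (4 of 7, Dcn most abundant), lymphatic endothelial genes 1.80 (3 of 5) and endothelial genes 0.63 (3 of 6, Cdh5 most abundant). The summed endothelial level was 395, 286 and 330 CPM in castrated and 433 and 179 CPM in intact mice, so that the groups overlapped. Osteoclast genes had a median of 2.33 (4 of 7 tested, Atp6v0d2 most abundant), and the 7 epithelial genes a median of -0.21 with no gene apart. Of the 12 adipocyte genes, 7 passed the filter through castrated samples alone (Adipoq, Plin1, Lep, Cidec, Cfd, Retn and Adrb3), and of the other 5, 1 was without overlap and 1 was higher at the unadjusted threshold, against 7.34% of all genes. The 3 tested prostate genes had a median of -1.11. The order castrated replicate 2, 3, 1 seen in most macrophage genes was also that of the summed adipocyte, dendritic cell, pan-leukocyte, T cell, osteoclast and smooth muscle lists. Among castrated mice, the B cell, NK cell, mast cell, fibroblast, epithelial and prostate lists were highest in replicate 3. The neutrophil, endothelial and lymphatic endothelial lists were highest among them in replicate 1.

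**Figure D5:**
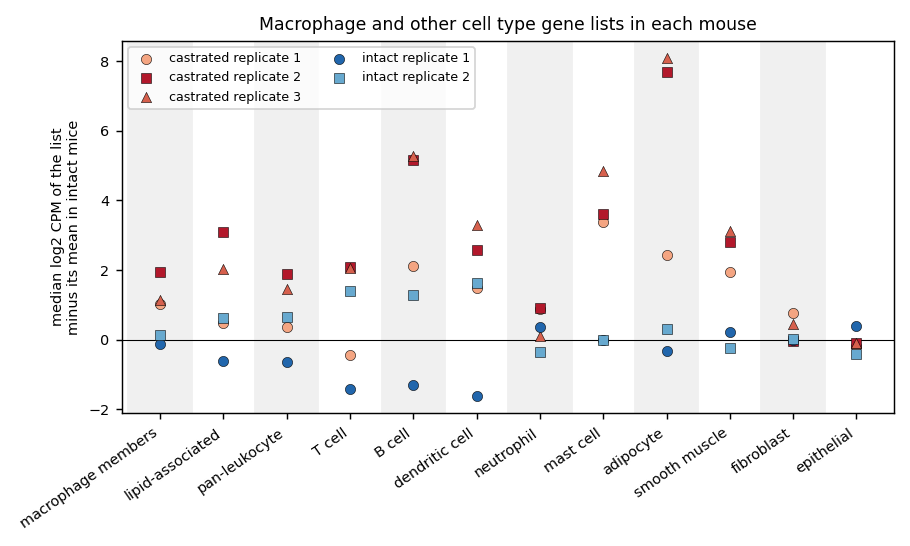
Median log2 CPM of each gene list in each mouse minus the mean of the 2 intact mice, for the 42 macrophage members, the lipid-associated members and 10 lists of other cell types. Adipocyte and B cell lists lie far above the intact mice in castrated replicates 2 and 3, the macrophage members lie above both intact mice in all 3 castrated mice, and the epithelial list lies close to 0.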

How the data were processed

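RNA of prostate tumors (3 castrated and 2 intact mice) was depleted of ribosomal RNA and sequenced in pairs of reads. Per the labels, the authors used Trimmomatic 0.39 for trimming, STAR 2.7.9 for alignment to mm10 and HTSeq 2.0.2 for counting, and they deposited whole-number counts per gene that had not been normalized. Whether counting used strand is not given in the sources used here, so overlapping genes are uncertain. The deposited table also holds a gene length in kilobases, used to compute TPM. Total counts ranged from 18951782 to 28015507.

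The analysis used edgeR 4.0.16, DESeq2 1.42.0 and limma 3.58.1 in R 4.3.3. Test and thresholds followed the methods of the study, except that the fit took the deposited counts where those methods name TPM. A filter kept genes whose CPM exceeded 1 in 2 or more samples, and TMM normalization was used. Testing was by edgeR's quasi-likelihood F-test in its older form, which is not the default of this edgeR version, with other settings at default. Benjamini-Hochberg adjustment was over the 14612 genes tested. CPM used TMM library sizes, and log2 CPM a prior count of 2. The common dispersion was 0.2381. Members and lists were chosen with earlier results of these data known. Genes that could be named were the 42 members and, of the other macrophage genes and of each cell type list, the 3 highest in mean TPM, the 2 with the largest absolute log2 fold change and any at 0 counts throughout, and not every one is printed. Il10, Cd9, Il6, Ptgs2, Plin2, Lipa, Ccl3, Ccl4, Pf4, Cbr2, Stab1, Gas6, F13a1 and some of the cell type genes fall outside this rule and were named after their values were seen. No 2 samples of a group held the same library, as their chi-square per gene was 140.7 or more. The values of 1 member and of 1 prostate gene are not reported here, though both remain in the counts and medians. Protein sequences of the adaptors, which were to be described, were not used here. The procedures were tested on simulated data. Alternatives were other tests, scalings and filters, a replicate block and leaving out each sample.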

Additional observations from a re-analysis of the deposited data

How the results depend on the processing

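The median log2 fold change of the 42 macrophage genes was 1.75 and kept its direction under every alternative run, from 1.57 with limma voom to 1.77 with library size only, and from 1.12 without castrated replicate 2 to 1.94 without castrated replicate 1. Every castrated mouse was above both intact mice for 30 of the 42 under each alternative that kept all samples, and for 30 to 36 when 1 sample was left out, when the share of all genes was 19.2% to 36.4%. Without Marco, Timd4 and Retnla, left out after seeing the data, these were 27 of 39 genes (17% of all genes), 18 were higher at the unadjusted threshold (7.34% of all genes) and the median was 1.67. Differences in relative level were then 0.30 for scavenger receptors, 0.45 for resident genes and -1.16 for polarization genes (0.26 with Retnla). Calls depended on the test: DESeq2 called 989 genes, 15 of them members, and the likelihood ratio test 369, of them 4 members, against 0 in edgeR's quasi-likelihood test, and the cause was not tested. Leaving out 1 sample gave 0 to 1 calls among all genes and 0 among members, 800 to 2495 genes at the unadjusted threshold (1530 with all samples; 800 without castrated replicate 3, 820 without castrated replicate 2 and 2495 without intact replicate 1), and 8 to 27 members higher at it (20 with all samples; 11 without castrated replicate 2, 8 without intact replicate 1 and 10 without intact replicate 2, against 4.13%, 10.6% and 6.22% of all genes). In these fits fewer samples were used, and a lone intact mouse was assumed to vary like the castrated mice.

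Same-numbered mice are different animals, and the correlation of their deviations from the group means was 0.149 for replicate 1 and -0.045 for replicate 2. With the replicate block, 883 genes passed the unadjusted threshold. Of the members, 18 were higher at it (4.69% of all genes), their median was 1.67 and 0 were called. Of 780 values of single genes under alternatives, 9 changed sign: Chil3 with the replicate block (-0.22), without castrated replicate 1 (-1.56) and without intact replicate 2 (-0.69), Tlr4 without intact replicate 2 (0.30), Cd9 without castrated replicate 1 (0.20) and without intact replicate 1 (0.21), and Il6 with the replicate block (0.28), without castrated replicate 3 (0.25) and without intact replicate 2 (0.16). Leaving out 1 sample gave ranges of -1.56 to 4.71 for Chil3, -0.60 to 0.30 for Tlr4, -0.28 to 0.21 for Cd9 and -0.88 to 0.25 for Il6. A fit with edgeR's newer quasi-likelihood method, chosen after seeing the data, gave 20 members higher at the unadjusted threshold, against 7.66% of all genes.

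With pan-macrophage genes as reference, differences in relative level moved to 0.36 for C-type lectins, 0.45 for resident genes, 0.43 for lipid-associated genes (0.70 with the core genes), -0.33 for Fc receptors and adaptors, -0.83 for apoptotic cell receptors, 0.31 for monocyte recruitment, -0.31 for further identity genes, -0.51 for ITAM signaling and -0.90 for inflammatory genes. With a prior count of 0.5 every list that had separated the groups did so again, in the same direction. Differences between mice, more than counting error, limit precision.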
